A study of Mus musculus with 76 samples.

Results

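Embryos of exposed mothers were set against embryos of exposed fathers, with 2 doses of α-cypermethrin pooled. Of the 76 libraries of the series, 42 enter: the 20 titled Maternal_0.3Cyp or Maternal_10Cyp and the 22 titled Paternal_0.3Cyp or Paternal_10Cyp. They were chosen by title alone, and no library of unexposed parents or of 2 exposed parents was used. All are RNA-seq libraries of the dorsal forebrain, from which the cortex forms. The embryos were C57BL/6J mice at E16, that is embryonic day 16. Maternal embryos had a mother given α-cypermethrin and a father given vehicle. Paternal embryos had a father given α-cypermethrin and a mother given vehicle. Treatment lasted 28 days, with 7 days on and then 3 cycles of 2 days off and 5 days on, and the animals were mated afterwards. Maternal_0.3Cyp had 12 libraries and Paternal_0.3Cyp 12, and Maternal_10Cyp had 8 and Paternal_10Cyp 10, at doses labelled 0.3 and 10 with no unit. The labels name no litter, so littermates may be counted as separate embryos. The p-values, standard errors and intervals thus rest only on the spread between these libraries.

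α-Cypermethrin is a pyrethroid insecticide that holds voltage-gated sodium channels open. An effect of exposure before conception can reach the embryo through the egg or the sperm, and a mother also provides the oocyte's mitochondria and carries the pregnancy. Imprinted genes are read mainly from the allele of 1 parent, and mitochondrial DNA comes from the mother, so both groups of genes are given separately. At this age radial glia line the ventricle of the dorsal forebrain, divide, and make intermediate progenitors that in turn make the excitatory neurons of the cortex.

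Library totals, in megacounts (M), were 17.7 to 27.9 in Maternal libraries (median 18.9) and 17.8 to 41.4 in Paternal libraries (median 19.2). At the median total of 19.2 M, 1 CPM (counts per M of the library) stood for about 19 counts. Both parents were spread over both batches, with 8 and 12 Maternal and 10 and 12 Paternal libraries in batches 1 and 2, and over both sexes, with 10 female and 10 male Maternal and 12 female and 10 male Paternal embryos. The library total, the percent of mitochondrially encoded counts, the percent of globin counts and the ratio of embryonic to adult globin did not pass a permutation test of Maternal against Paternal within dose and batch (100000 draws, 2-sided, lowest adjusted p = 0.634 over 4 measures).

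A set of 6 Paternal libraries and no Maternal one stood apart. The summed level of the diencephalon markers lay more than 3 median absolute deviations above the median in 4 of them: 808 CPM in Paternal_0.3Cyp replicate 9, 209.9 in replicate 6, 119.9 in replicate 4 and 155.6 in Paternal_10Cyp replicate 1, against 48.2 to 84.9 CPM in the Maternal libraries. The diencephalon, which becomes thalamus and its neighbours, borders the dorsal forebrain. Embryonic globin reached 81.5 CPM in Paternal_0.3Cyp replicate 4 and 21.2 CPM in replicate 3, against at most 1.69 CPM in Maternal libraries. Paternal_0.3Cyp replicate 8 lay farthest from the mean of its own group over all genes. Its cytosolic ribosomal protein mRNAs summed to 64997 CPM, against 31508 to 46309 CPM in Maternal libraries and at most 44040 CPM in the other Paternal ones. Its globins took 0.354 percent of counts, against at most 0.224 percent in Maternal libraries. Results below are given with all 42 libraries, and for many genes and lists again without these 6. Leaving out these 6, which takes Paternal_0.3Cyp down to 7 libraries and Paternal_10Cyp to 9, was chosen after the values were seen.

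With all 42 libraries no gene separated the Maternal from the Paternal forebrains. By edgeR's quasi-likelihood test with dose and batch as covariates, 0 of 14128 genes (0.0 percent) had a Benjamini-Hochberg adjusted p under 0.05, and DESeq2 and limma also called 0. An unadjusted p under 0.05 was found for 325 genes (2.3 percent), of which 110 were higher in Maternal libraries (0.779 percent) and 215 lower (1.52 percent). That balance depended on the method: limma gave 1113 higher and 775 lower at such a p, and 2 surrogate variables 371 higher and 220 lower. The lowest adjusted p was 0.561, for Irx2 and Shox2, both genes of the diencephalon. The median size of the difference was 0.035 on the log2 scale, and 90 percent of genes lay between -0.18 and 0.086.

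The intervals set how large a difference could have been missed. The median 95% interval reached 0.12 either side of the estimate on the log2 scale, or 1.09-fold. For 13393 of 14128 genes (94.8 percent) the whole interval lay within 1.5-fold either way, and among the 13171 genes with a mean of at least 1 CPM this share was 98.0 percent. Estimates beyond 1.5-fold were found for 68 genes, and beyond 2-fold for 18, of which 13 were lower and 5 higher in Maternal libraries. Without the 4 libraries high in diencephalon markers these counts were 38 and 6.

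**Figure D1:**
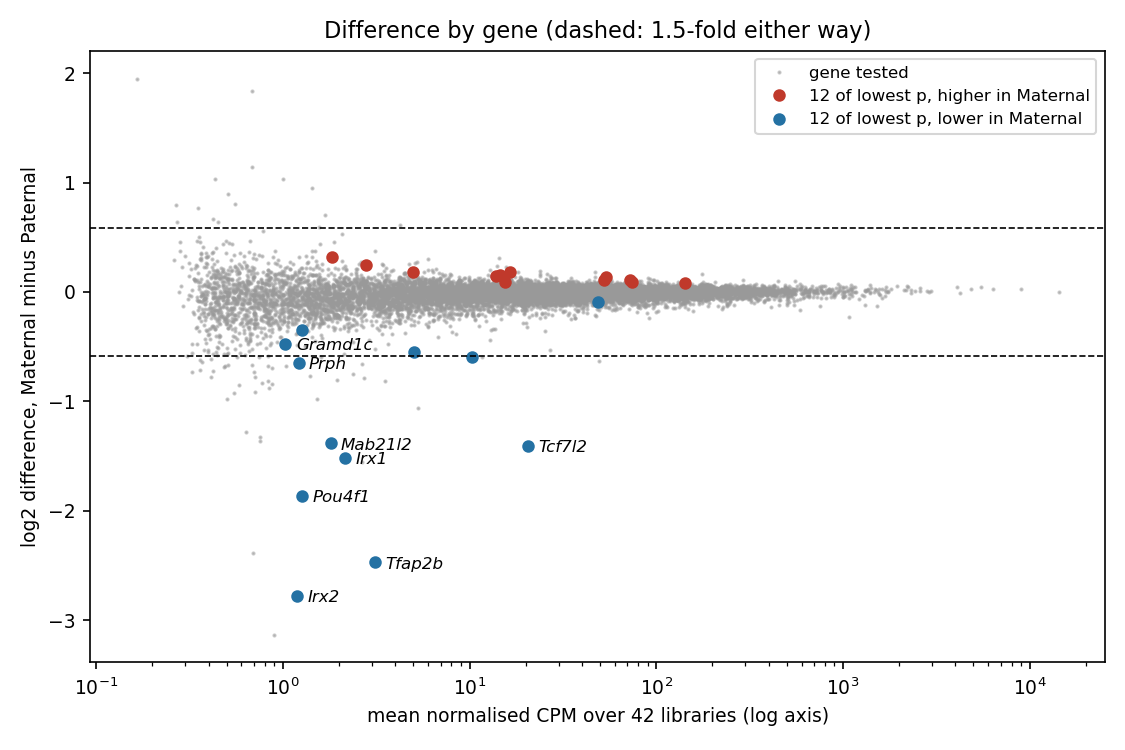
Log2 difference, Maternal minus Paternal, of each of 14128 genes against its mean normalised CPM over 42 libraries on a log axis, with 1.5-fold marked by dashed lines. Most genes lie between the lines, and among those farthest below them are Irx2 at -2.78, Tfap2b at -2.47 and Pou4f1 at -1.86.

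Genes of the diencephalon had the lowest median of the 49 gene lists in Maternal relative to Paternal libraries, and 4 Paternal libraries held the highest values. All 19 tested markers of the list had a negative log2 difference, with a median of -0.55 against -0.005 over all genes. An unadjusted p under 0.05 was found for 12 of 19 (63.2 percent), against 1.52 percent of all genes on the lower side. The list median was -0.81 at dose 0.3 and -0.17 at dose 10. The list's 4 high libraries are all Paternal, and without them its median was -0.093. The markers were summed to choose those libraries, so the value without them follows in part from the choice. Only 17 of the 19 markers passed the filter on low counts without the 6 libraries. Some markers were thus tested only through libraries where they are high, and the counts out of 19 rest in part on this. The list was also chosen with earlier results of these data known. Some Paternal libraries left in also passed the highest Maternal sum of 84.9 CPM, among them Paternal_10Cyp replicate 8 at 111.7 and replicate 7 at 101.0 CPM. In bulk tissue, fewer cells of a type and less RNA per cell cannot be told apart.

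Irx2, a homeobox gene of the caudal diencephalon (chr13:72628820-72634198, mm10), had a level of 0, 0.161 and 1.21 normalised CPM as lowest, median and highest of 20 Maternal libraries. In the 22 Paternal libraries it was 0.104, 0.415 and 24.5 CPM. The groups overlap, and the highest value is that of Paternal_0.3Cyp replicate 9. Its log2 difference was -2.78 ± 0.62 (SE; edgeR quasi-likelihood p = 5.74e-05, adjusted p = 0.561), and without the 4 high libraries -1.20 ± 0.44 (p = 0.00936). Only 4 of 20 Maternal libraries were above the Paternal median.

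Tcf7l2, a nuclear effector of Wnt signalling that marks the thalamus, had 6.20, 9.93 and 26.7 normalised CPM as lowest, median and highest in Maternal libraries, against 4.80, 11.8 and 239.8 CPM in Paternal ones. The medians are close, and the tail of high values is Paternal. The log2 difference was -1.41 ± 0.41 with all libraries and -0.17 ± 0.18 without the 4. Tfap2b, a transcription factor, had 0.0503, 0.398 and 2.68 CPM in Maternal libraries, against 0, 0.679 and 86.4 CPM in Paternal ones, with a log2 difference of -2.47 ± 0.72 that was -0.54 ± 0.55 without the 4. Pou4f1, a transcription factor of the habenula, had 0, 0.356 and 2.18 CPM in Maternal libraries, against 0, 0.582 and 18.3 CPM in Paternal ones. Its log2 difference was -1.86 ± 0.55, and -0.52 ± 0.44 without the 4. Irx1 (-1.52 ± 0.41), Mab21l2 (-1.39 ± 0.43) and Lhx9 (-0.60 ± 0.19) had the same form, at -0.33, -0.32 and -0.12 without the 4 libraries. Shox2 (-3.13 ± 0.72) and Irx5 (-2.39 ± 0.60), chosen after their values were seen, averaged under 1 CPM over the 42 libraries. Neither passed the filter on low counts without the 4 libraries.

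**Figure D2:**
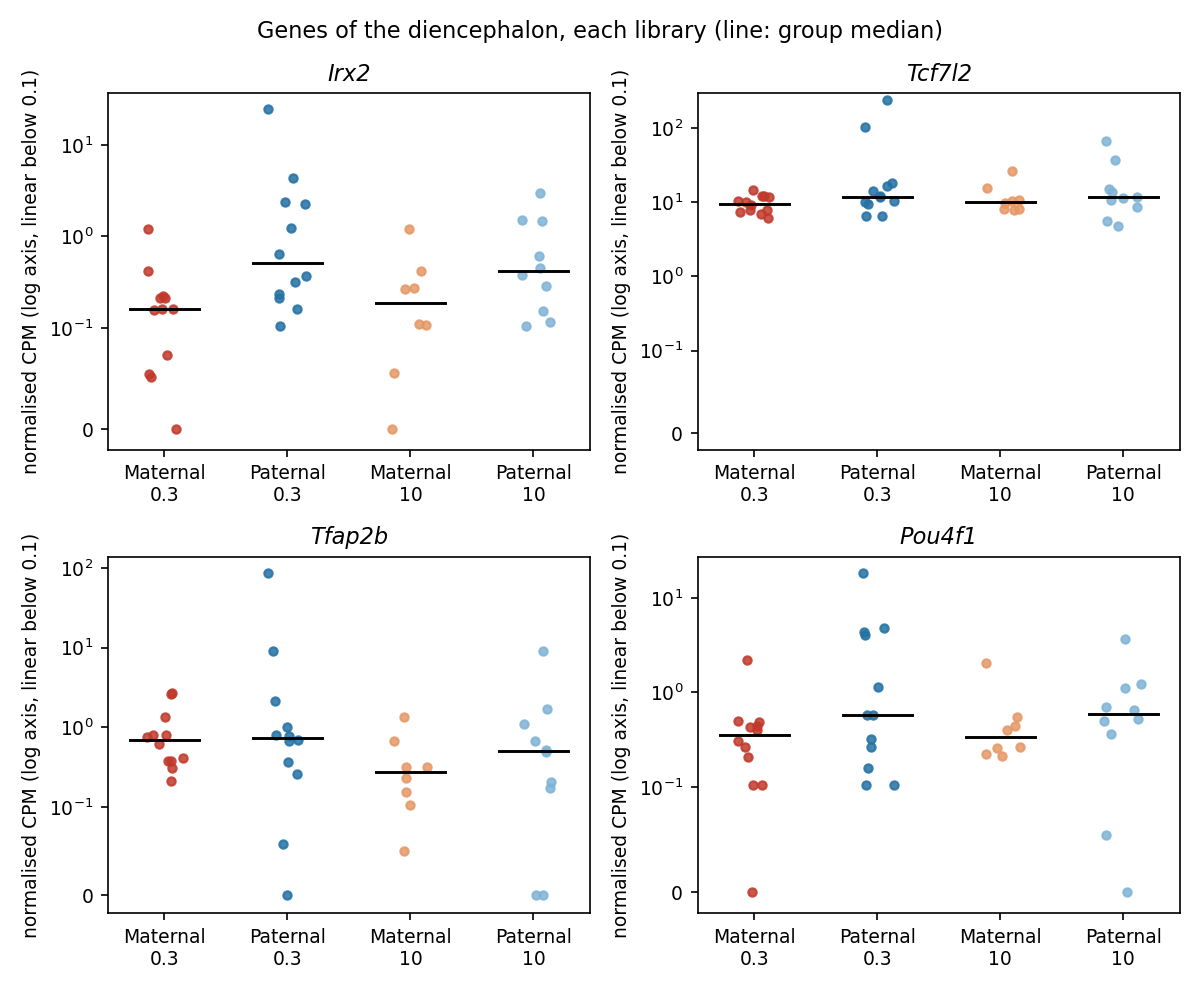
Normalised CPM of Irx2, Tcf7l2, Tfap2b and Pou4f1 in every library by parent and dose, on an axis that is logarithmic above 0.1 and linear below it, with a line at each group's median. The Irx2 medians over both doses are 0.161 CPM in Maternal and 0.415 CPM in Paternal libraries, while single Paternal libraries reach 24.5 CPM for Irx2 and 239.8 CPM for Tcf7l2.

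The other 5 of the 12 genes of lowest p on the lower side were Rora, Gramd1c, Prph, Dnd1 and Yaf2. Rora, an orphan nuclear receptor, is also a member of the diencephalon list. It had 3.33, 3.83 and 6.46 normalised CPM in Maternal libraries (lowest, median, highest) and 1.98, 5.24 and 23.7 CPM in Paternal ones, and 1 of 20 Maternal libraries was above the Paternal median. The log2 difference was -0.55 ± 0.17, -0.25 ± 0.10 without the 4 libraries high in diencephalon markers, and -0.33 ± 0.084 without the 6 libraries (p = 0.00031, adjusted p = 0.058, edgeR quasi-likelihood). Gramd1c, of a family of sterol carriers, had 0.443, 0.794 and 1.56 CPM in Maternal libraries and 0.543, 1.12 and 1.85 CPM in Paternal ones, with a log2 difference of -0.48 ± 0.14. Prph, the intermediate filament peripherin, was at -0.65 ± 0.19, Dnd1, an RNA-binding protein of germ cells, at -0.35 ± 0.11, and Yaf2, a polycomb partner, at -0.088 ± 0.030. Without the 6 libraries Gramd1c, Prph, Dnd1 and Yaf2 stood at -0.47, -0.42, -0.43 and -0.080, and each overlapped between the groups.

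On the higher side no gene differed by more than 0.32 on the log2 scale among the 12 of lowest p. Vit, which encodes the matrix protein vitrin (chr17:78508064-78627408), had 15.4, 17.7 and 21.9 normalised CPM in Maternal libraries (lowest, median, highest) and 13.2, 15.3 and 18.4 CPM in Paternal ones. All 20 Maternal libraries were above the Paternal median, while the ranges overlap. The log2 difference was 0.18 ± 0.046 (p = 0.000326, adjusted p close to 1), at 0.18 for dose 0.3 and 0.17 for dose 10, and it was 0.22 ± 0.049 without the 6 libraries. Gcg, which encodes proglucagon, had 1.25, 1.98 and 2.74 CPM in Maternal libraries and 0.982, 1.66 and 2.62 CPM in Paternal ones, at 0.32 ± 0.10. Carns1, carnosine synthase, had 2.18, 3.03 and 3.89 CPM in Maternal libraries and 1.80, 2.51 and 3.57 CPM in Paternal ones, at 0.24 ± 0.079. Pmepa1, a membrane protein that dampens TGF-β signalling, had 46.7, 54.8 and 61.0 CPM in Maternal libraries and 41.9, 51.0 and 60.2 CPM in Paternal ones, at 0.10 ± 0.033.

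The others reported lay between 0.082 and 0.18: Dand5, a Nodal antagonist, Zfp961, a zinc finger gene, Lrrc56, a ciliary protein, and Pdzrn3, a ubiquitin ligase, at 0.18, 0.16, 0.15 and 0.14, and Thtpa and Fam32a at 0.093 and 0.082. All 24 genes of lowest p overlap between the parents, as chosen, have the same sign at both doses and in both batches, and none passed the adjusted threshold with all 42 libraries.

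Paternal forebrains differed more among themselves than Maternal ones when all 42 libraries were kept. The measure was the standard deviation (SD) of log2(CPM + 0.5) within group and batch, over 13171 genes with a mean of at least 1 CPM, and it was chosen after the data were seen. The median SD was 0.132 in Maternal and 0.214 in Paternal libraries, and it was smaller in Maternal ones for 11521 genes (87.5 percent have the larger SD in Paternal). The distance of a library from its own group, the median over genes of its deviation, averaged 0.0919 ± 0.0185 (SD, n = 20) in Maternal libraries and 0.136 ± 0.0690 (SD, n = 22) in Paternal ones. The difference of -0.0441 had p = 0.00027 in a permutation test within dose and batch (2-sided, 100000 draws). The distances were fixed before labels were permuted, and libraries of the same group and batch share a mean. They are thus not independent, and the p-values of this test may be too small.

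The lowest, median and highest distances were 0.0708, 0.0845 and 0.132 in Maternal libraries and 0.0600, 0.121 and 0.412 in Paternal ones. A group of 4 Paternal libraries lay above every Maternal one, all at dose 0.3: replicates 8, 9, 4 and 2 at 0.412, 0.201, 0.192 and 0.168. At dose 0.3 the median SD was 0.135 in Maternal and 0.247 in Paternal libraries (permutation p = 0.00102). At dose 10 it was 0.119 and 0.149 in Maternal and Paternal libraries (permutation p = 0.0281).

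Most of this difference came with the libraries that stand apart, chiefly replicate 8 of Paternal_0.3Cyp. Without that library alone the difference of distances was -0.0227 (permutation p = 0.0115, 2000 draws), and without all 6 it was -0.00571 (permutation p = 0.478), with median SDs of 0.132 in Maternal and 0.140 in Paternal libraries. Of the 6, Paternal_0.3Cyp replicates 3 and 6 and Paternal_10Cyp replicate 1 lay within the Maternal range of distances, at 0.124, 0.104 and 0.109. The comparison without the 6 removes libraries partly for their distance, from 1 parent only.

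The spread was uneven over gene groups. All 49 gene lists had a smaller median SD in Maternal than in Paternal libraries, and 33 did so without the 6 libraries. Over all 13171 genes the SD was larger in Paternal libraries for 87.5 percent with all 42 libraries and for 56.5 percent (7447 genes) without the 6. For genes of mitosis the median SD was 0.143 in Maternal and 0.382 in Paternal libraries, with the larger SD in Paternal ones for 40 of 40 genes, and it was 0.236 in Paternal libraries without the 6, again for 40 of 40. Intermediate progenitor markers had 0.152 in Maternal and 0.375 in Paternal libraries (17 of 17 larger in Paternal), and 0.245 in Paternal ones without the 6 (15 of 17). Cytosolic ribosomal protein genes had 0.116 in Maternal and 0.272 in Paternal libraries (82 of 82), and 0.139 in Paternal ones without the 6 (68 of 82). Markers of microglia and macrophages had 0.302 and 0.306 in Maternal and Paternal libraries, and those of the meninges 0.678 and 0.716.

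**Figure D3:**
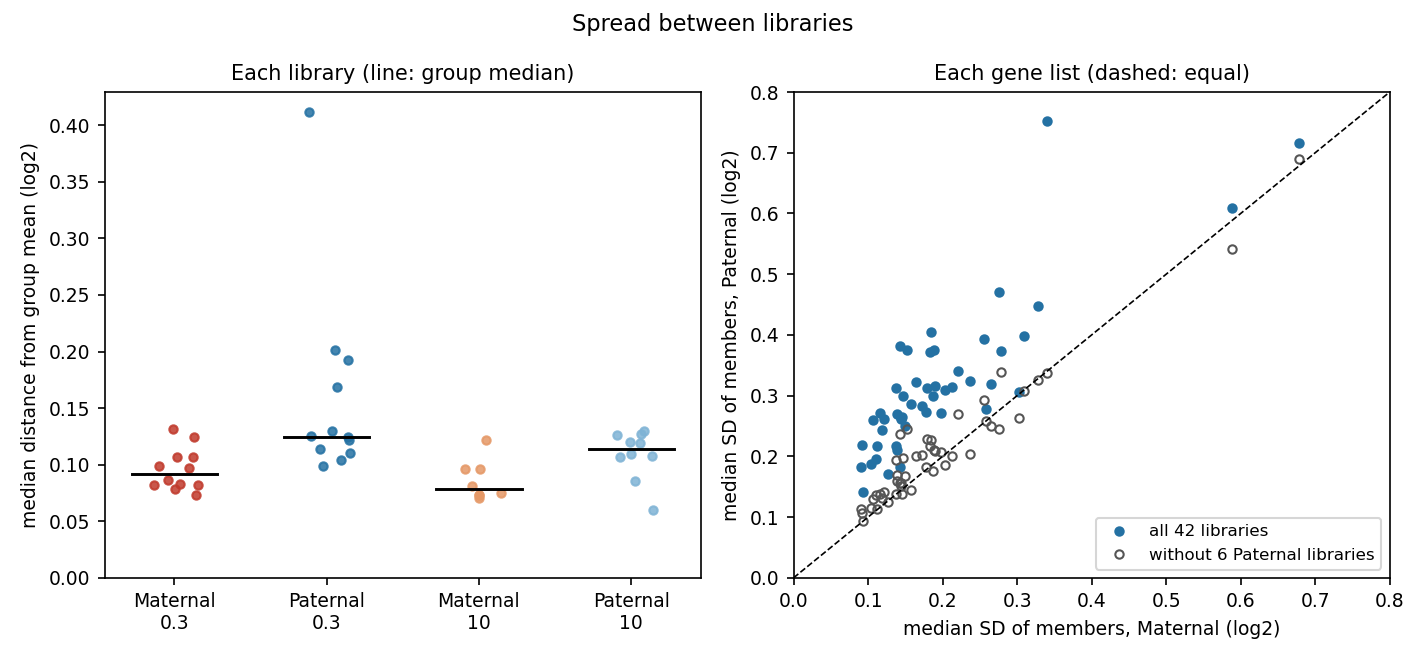
Left, median distance of each library from its group's mean in log2 units, by parent and dose, with a line at each group's median; right, median SD of each of 49 gene lists in Paternal against Maternal libraries, with all 42 libraries (filled) and without 6 Paternal ones (open). Paternal_0.3Cyp replicate 8 lies at 0.412 against at most 0.132 in Maternal libraries. Most open points lie nearer the dashed line of equal SD than the filled ones, but 33 of 49 still lie above it. Among these is mitosis, at 0.236 in Paternal against 0.143 in Maternal libraries.

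The 49 lists, 17 of cell types and 32 of pathways, held 1311 tested genes, and 0 of these were called with all 42 libraries. The list medians lay within 0.1 of 0 for 45 lists and within 0.05 for 34. The main progenitors and neurons of the cortex were near 0: radial glia had a median of 0.000, intermediate progenitors 0.033, upper-layer neurons 0.008 and deep-layer neurons -0.020. Cajal-Retzius cell markers had a median of -0.14, with 12 of 12 below 0 against 7649 of 14128 over all genes. Their median was -0.043 without the 6 libraries. Emx1, a homeobox gene of cortical progenitors, had 48.0, 65.4 and 87.4 normalised CPM in Maternal libraries (lowest, median, highest) and 24.4, 61.3 and 116.3 CPM in Paternal ones. Neurod6, a transcription factor of cortical excitatory neurons, had 410.6, 581.5 and 670.2 CPM in Maternal libraries and 222.3, 522.1 and 715.3 CPM in Paternal ones. The dorsal forebrain label thus has its markers in every library, at the lowest level in Paternal_0.3Cyp replicate 9.

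Without the 6 libraries the comparison looked different. An unadjusted p under 0.05 was then found for 3164 of 14108 genes (22.4 percent), of which 1603 (11.4 percent) were higher and 1561 (11.1 percent) lower in Maternal libraries, against 325 with all 42. Only 2 genes (0.0142 percent) had an adjusted p under 0.05, and 1055 had one under 0.1. These p-values do not allow for the choice of the 6, all Paternal, after the values were seen. Genes of cell division, ribosomes, respiration and the proteasome were on the higher side in Maternal libraries, and genes of ion channels, receptors, synapses and cholesterol synthesis on the lower side. The differences were small, with a median size of 0.062 on the log2 scale and 54 genes beyond 1.5-fold.

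Both genes with an adjusted p under 0.05 without the 6 libraries were lower in Maternal ones. They are named after their values were seen, and their adjusted p does not allow for the choice of the 6. Pak7, a p21-activated kinase (chr2:136081104-136387967), had 63.7, 70.1 and 80.1 normalised CPM in Maternal libraries (lowest, median, highest) and 69.4, 78.1 and 84.1 CPM in the 16 Paternal libraries left. The 6 libraries had 54.2 to 64.4 CPM, all below the other 16 Paternal ones, so leaving them out raised the Paternal level. Pak7 had a log2 difference of -0.14 ± 0.025 without the 6 (edgeR quasi-likelihood adjusted p = 0.037), and -0.044 ± 0.042 with them (adjusted p close to 1). Mfhas1, which encodes a leucine-rich repeat protein, had 38.2, 42.9 and 49.0 CPM in Maternal libraries and 44.7, 47.8 and 52.2 CPM in the 16 Paternal ones, while the 6 ran from 26.2 to 58.2 CPM. It had a log2 difference of -0.15 ± 0.029 without the 6 (adjusted p = 0.037), and -0.092 ± 0.053 with them.

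Among genes of cell division, 30 of 40 mitosis genes and 34 of 45 genes of DNA replication had an unadjusted p under 0.05 on the higher side without the 6 libraries, against 0 and 1 with all 42. Over all genes the share on the higher side was 11.4 percent without the 6 and 0.779 percent with all 42. Their medians were 0.17 and 0.14 without the 6, and 0.055 and 0.037 with all 42. Prim2, a subunit of DNA primase, had 24.7, 26.8 and 32.1 normalised CPM in Maternal libraries and 18.1, 25.5 and 33.0 CPM in all 22 Paternal ones, with a log2 difference of 0.13 ± 0.033 without the 6 and 0.092 ± 0.042 with all 42. Ska1, of the kinetochore, was at 0.31 ± 0.098 without the 6 and 0.18 ± 0.10 with all 42. Intermediate progenitor markers had a median of 0.15 without the 6, with 9 of 17 genes at an unadjusted p under 0.05 and all 9 higher. Mfng, a modifier of Notch receptors, had 36.3, 46.0 and 56.6 CPM in Maternal libraries and 23.3, 40.5 and 68.8 CPM in Paternal ones, at 0.25 ± 0.060 without the 6 and 0.11 ± 0.086 with all 42. Among markers of neurons, the deep-layer list had a median of -0.073 without the 6 (13 of 15 below 0, 5 lower and 0 higher at an unadjusted p under 0.05) and the upper-layer list -0.050 (11 of 14 below 0, 4 lower and 0 higher). Over all genes 11.1 percent were lower at such a p without the 6, and 7060 of 14101 were below 0.

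Genes of protein synthesis and energy metabolism lay on the same side. For cytosolic ribosomal proteins, 62 of 82 had an unadjusted p under 0.05 and were higher without the 6 libraries, 82 of 82 were above 0, and the median was 0.097, against 0.008 with all 42 and 0.073 without Paternal_0.3Cyp replicate 8 alone. Over all genes 11.4 percent were higher at such a p without the 6, and 7041 of 14101 were above 0. The medians for mitochondrial ribosomal proteins, complex I, complexes II to V and the proteasome were 0.077, 0.070, 0.070 and 0.073 without the 6, and 0.005, -0.015, -0.007 and 0.002 with all 42. Leaving out replicate 8 alone gave 0.049, 0.049, 0.049 and 0.050 in the same order, so both lists of respiratory complexes changed sign without that 1 library. For all of these lists replicate 8, which is 1 of the 6, had a higher sum than the other 41 libraries. The higher medians without it or without the 6 thus follow in part from leaving out this Paternal library. Rps27l, a ribosomal protein paralogue, had 23.3, 27.7 and 36.95 CPM in Maternal libraries and 19.04, 25.2 and 49.0 CPM in Paternal ones, the highest in Paternal_0.3Cyp replicate 8. Its log2 difference was 0.22 ± 0.053 without the 6 and 0.091 ± 0.078 with all 42.

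Genes of neuronal excitability had negative list medians, both with all 42 libraries and without the 6. Sodium channel genes, the class that pyrethroids act on, had a median of -0.16 without the 6 (9 of 15 at an unadjusted p under 0.05, all lower) and -0.085 with all 42 (0 of 15, with 13 of 15 below 0). Glutamate receptors had -0.14 without the 6 (20 of 36 lower) and -0.069 with all 42 (2 of 36), GABA receptors and chloride transport -0.14 (13 of 25) and -0.065 (1 of 25), calcium channels -0.15 (9 of 15) and -0.071 (0 of 15), and vesicle release -0.11 (18 of 35) and -0.058 (0 of 35). These counts read against the 11.1 percent of all genes that were lower without the 6 and the 1.52 percent with all 42. With all 42 libraries 7649 of 14128 genes were below 0.

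Grm3, a metabotropic glutamate receptor, had 6.70, 11.6 and 15.2 normalised CPM in Maternal libraries (lowest, median, highest) and 3.96, 15.2 and 25.8 CPM in Paternal ones, with 1 of 20 Maternal libraries above the Paternal median. Its log2 difference was -0.34 ± 0.15 with all 42 libraries (p = 0.0254) and -0.49 ± 0.099 without the 6 (p = 1.59e-05, edgeR quasi-likelihood adjusted p = 0.053). Nalcn, a sodium leak channel, was at -0.24 ± 0.085 without the 6 and -0.20 ± 0.10 with all 42, and Scn9a, a voltage-gated sodium channel, at -0.34 ± 0.15 and -0.26 ± 0.17. Cacna1a, a calcium channel of nerve endings, was at -0.19 ± 0.051 without the 6 and -0.11 ± 0.071 with all 42. Hmgcs1, an early enzyme of cholesterol synthesis, had 415.7, 488.2 and 552 CPM in Maternal libraries and 377.3, 530.5 and 620.5 CPM in Paternal ones, at -0.15 ± 0.040 without the 6 and -0.10 ± 0.049 with all 42.

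The summed levels show where the 6 libraries lay. Mitosis genes summed to 1611.6, 1823.2 and 2159.9 normalised CPM in Maternal libraries (lowest, median, highest), to 1130.1, 1740.5 and 2123 CPM in the 16 Paternal libraries left, and to 1140.6, 1914.3 and 3094.4 CPM in the 6. The lowest of the 16 was Paternal_0.3Cyp replicate 2. Sodium channel genes summed to 433.8, 514.1 and 626.4 CPM in Maternal libraries, to 459.9, 588.5 and 656.4 CPM in the 16, and to 323.8, 446.1 and 753.3 CPM in the 6. The 6 lay on both sides of the rest: replicate 4 of Paternal_0.3Cyp had the highest mitosis sum and the lowest sodium channel sum, and replicate 9 had the highest sodium channel sum. The 16 and the Maternal libraries overlap in both sums. All libraries left out are of 1 parent, so the comparison without them is not symmetric.

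**Figure D4:**
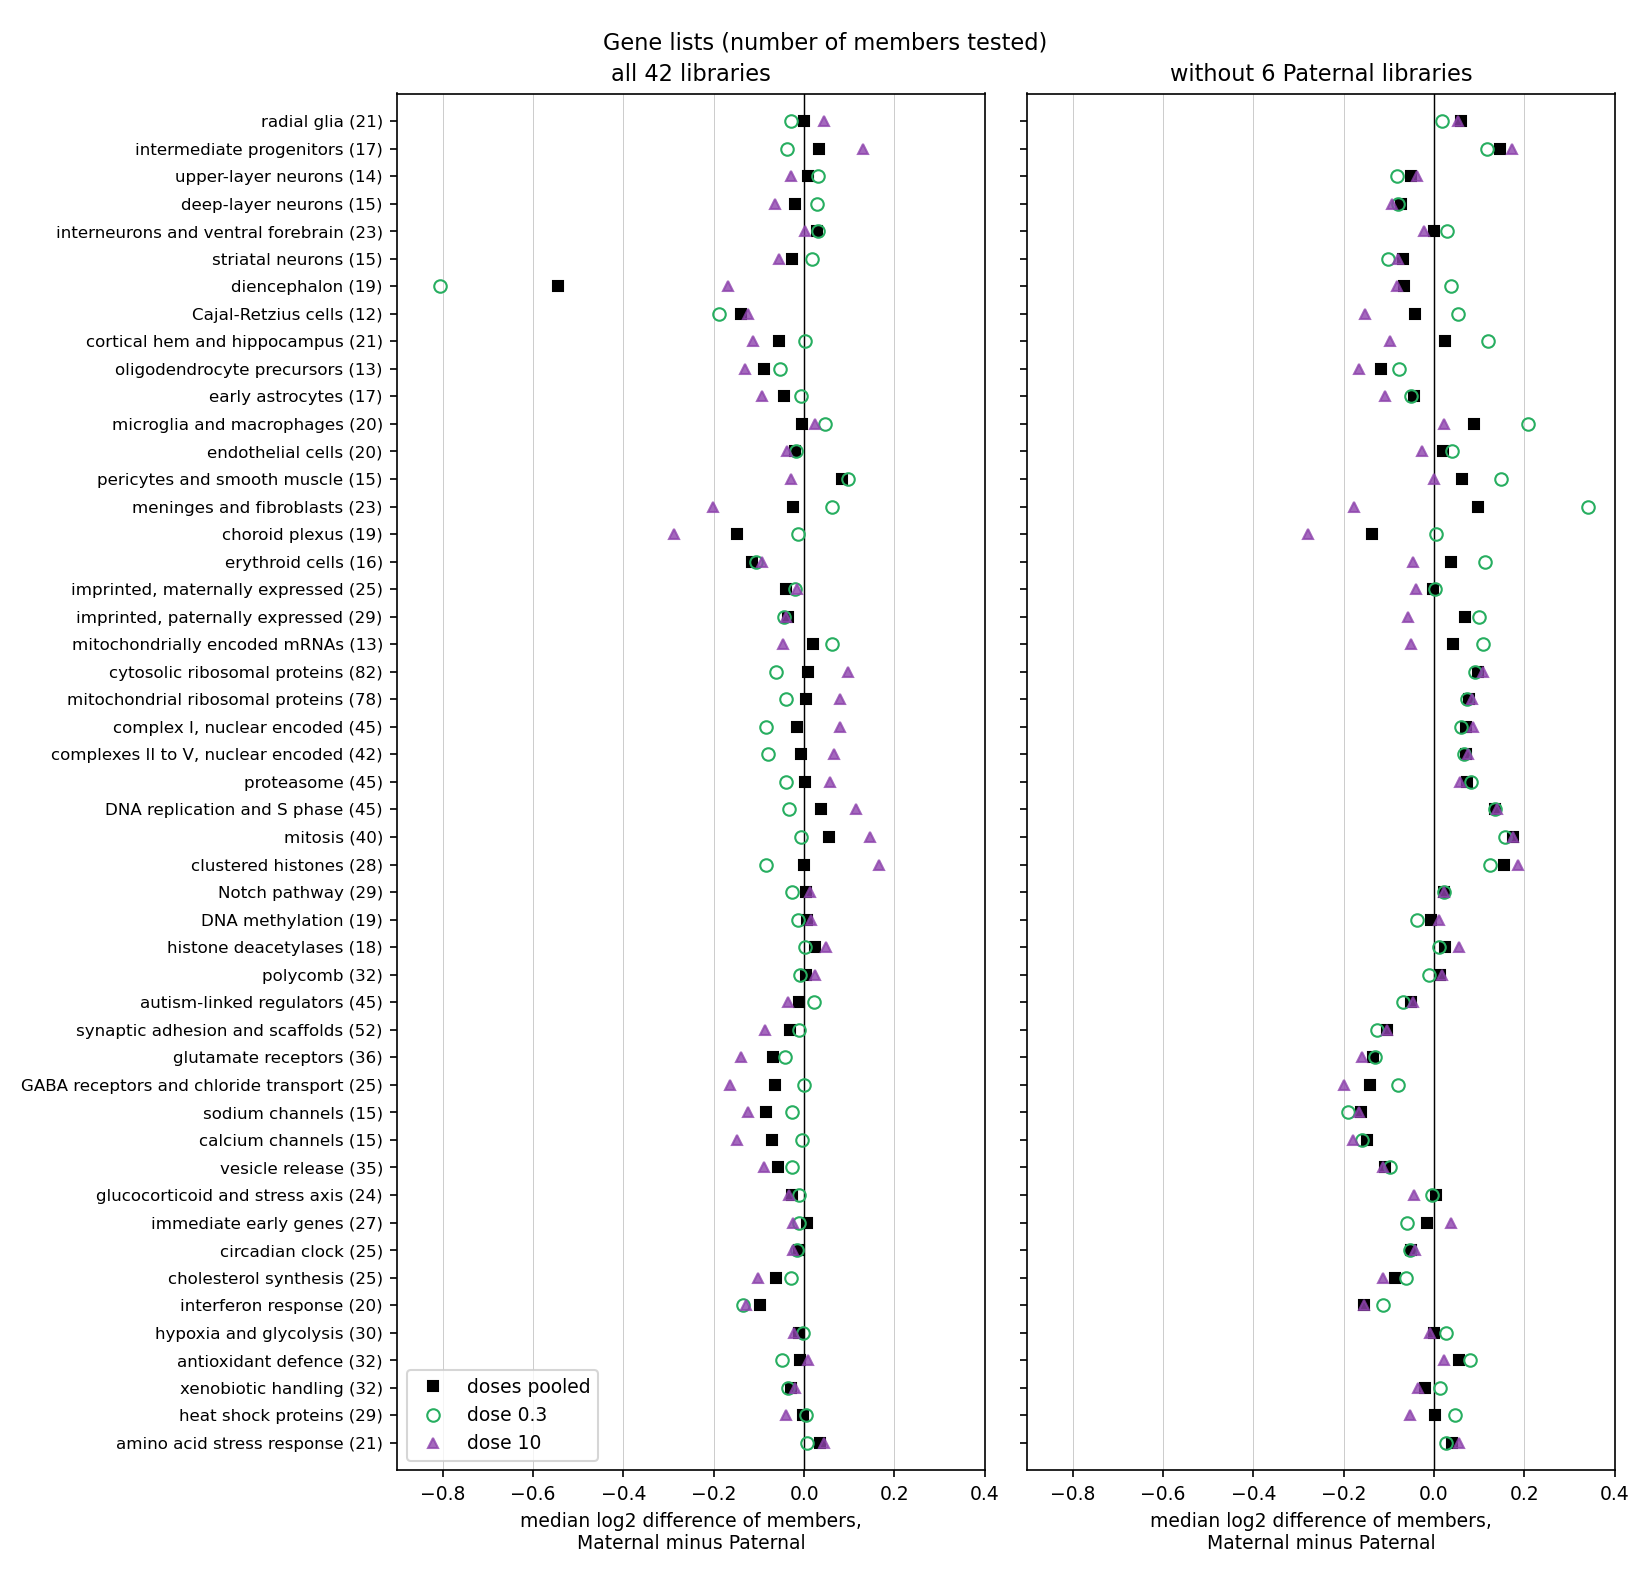
Median log2 difference, Maternal minus Paternal, of the members of 49 gene lists (number tested in parentheses), for doses pooled, dose 0.3 and dose 10, with all 42 libraries (left) and without 6 Paternal libraries (right). With all 42 libraries most medians lie within 0.1 of 0 apart from diencephalon at -0.55, and without the 6 mitosis is at 0.17 and sodium channels at -0.16, with both doses on the same side of 0 for each.

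Neither dose alone separated the parents. At dose 0.3, 0 of 14128 genes were called (0.0 percent) and 443 (3.14 percent) had an unadjusted p under 0.05, with 1.15 percent higher and 1.98 percent lower in Maternal libraries. At dose 10 these counts were 0 and 506 (3.58 percent), with 1.94 percent higher and 1.64 percent lower, by edgeR's quasi-likelihood test. Without the 6 libraries 10.9 percent had such a p at dose 0.3 (5.84 higher, 5.07 lower) and 15.5 percent at dose 10 (8.15 higher, 7.38 lower), with 0 called at each. No gene passed edgeR's quasi-likelihood test of a difference between the doses (0 called, 677 at an unadjusted p under 0.05, 4.79 percent). The same sign at both doses was found for 6274 genes (44.4 percent) with all libraries, and for 9161 (65.0 percent) without the 6. Mitosis genes had medians of -0.008 at dose 0.3 and 0.15 at dose 10 with all libraries, and 0.16 and 0.17 without the 6. Cytosolic ribosomal proteins had -0.062 and 0.096 at doses 0.3 and 10 with all libraries, 0.067 and 0.085 without Paternal_0.3Cyp replicate 8 alone, and 0.091 and 0.11 without the 6. Sodium channels had -0.027 and -0.12 with all libraries and -0.19 and -0.17 without the 6.

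Markers of tissues around the cortex had medians of unlike size at the 2 doses, a difference that no member passed a test for. Choroid plexus markers had a pooled median of -0.15 with 2 of 19 above 0 and 1 at an unadjusted p under 0.05. Over all genes 6479 of 14128 were above 0 and 2.3 percent had such a p. The choroid plexus median was -0.013 at dose 0.3 and -0.29 at dose 10. Foxj1, a regulator of cilia, had 13.1, 18.5 and 26.9 normalised CPM in Maternal libraries and 13.6, 21.1 and 27.5 CPM in Paternal ones, at -0.16 ± 0.077. Meningeal markers were at 0.062 and -0.20 at doses 0.3 and 10, and at 0.34 and -0.18 without the 6. Choroid plexus and meninges had among the largest SDs of all lists in both parents. The amount of these tissues in a dissected sample was not measured, and its part in the values was not tested. Erythroid markers had a pooled median of -0.11, and 0.038 without the 6. Hbb-y, an embryonic globin, was at 0.104, 0.609 and 1.24 CPM in Maternal libraries and 0.0517, 0.476 and 69.6 CPM in Paternal ones.

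Batches and sexes were tested in the same way. Differences between batches in the parental comparison were called for 0 genes (432 at an unadjusted p under 0.05, 3.06 percent), and differences between sexes for 0 genes (164, 1.16 percent). Within batch 1, 246 genes had an unadjusted p under 0.05 and 0 were called, and within batch 2 557 and 0. The diencephalon median was -0.27 in batch 1 and -0.84 in batch 2. Mitosis genes had medians of 0.074 and 0.041 in batches 1 and 2, and sodium channels -0.065 and -0.14. Female and male embryos had 164 and 365 genes at an unadjusted p under 0.05 and 0 called each.

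No gene of either imprinted list passed the test of Maternal against Paternal libraries. Of 34 genes listed as expressed from the maternal allele 25 were tested, with a median of -0.041 and 2 at an unadjusted p under 0.05 (0 called). Of 39 listed as expressed from the paternal allele 29 were tested, with a median of -0.035 and 0 at p under 0.05. Over all genes 2.3 percent had such a p. The study's counts do not tell alleles apart, so they give the summed output of both. Which allele each listed gene uses in this tissue was therefore not checked, and some may be listed under the other parent. Igf2, a growth factor listed as paternally expressed, had 69.4, 108.4 and 309.5 normalised CPM in Maternal libraries (lowest, median, highest) and 62.2, 104.9 and 293.7 CPM in Paternal ones, with a log2 difference of 0.065 ± 0.19.

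Kcnq1, a potassium channel, had 0.738, 1.52 and 2.55 CPM in Maternal libraries and 0.581, 1.26 and 1.76 CPM in Paternal ones, with a log2 difference of 0.27 ± 0.13 (edgeR quasi-likelihood p = 0.0416, adjusted p close to 1). Osbpl5, an oxysterol-binding protein, had 41.0, 45.4 and 49.96 CPM in Maternal libraries and 38.8, 47.6 and 52.7 CPM in Paternal ones, at -0.059 ± 0.028 (p = 0.0421). Cdkn1c, an inhibitor of the cell cycle, was at -0.087 ± 0.068, Peg3, a zinc finger protein, at -0.13 ± 0.11, and Snrpn, of the spliceosome, at -0.063 ± 0.058. Ndn, necdin, had 272.6, 324 and 352.8 CPM in Maternal libraries and 278, 330.8 and 544.5 CPM in Paternal ones. Its difference was -0.099 ± 0.062 with all 42 libraries and 0.009 ± 0.042 without the 6. Without the 6, the maternally expressed list had a median of -0.002, with 1 of 25 higher and 3 lower in Maternal libraries at an unadjusted p under 0.05. The paternally expressed list had a median of 0.069 without the 6, with 5 of 29 higher and 0 lower, against 11.4 percent of all genes higher and 11.1 percent lower.

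**Figure D5:**
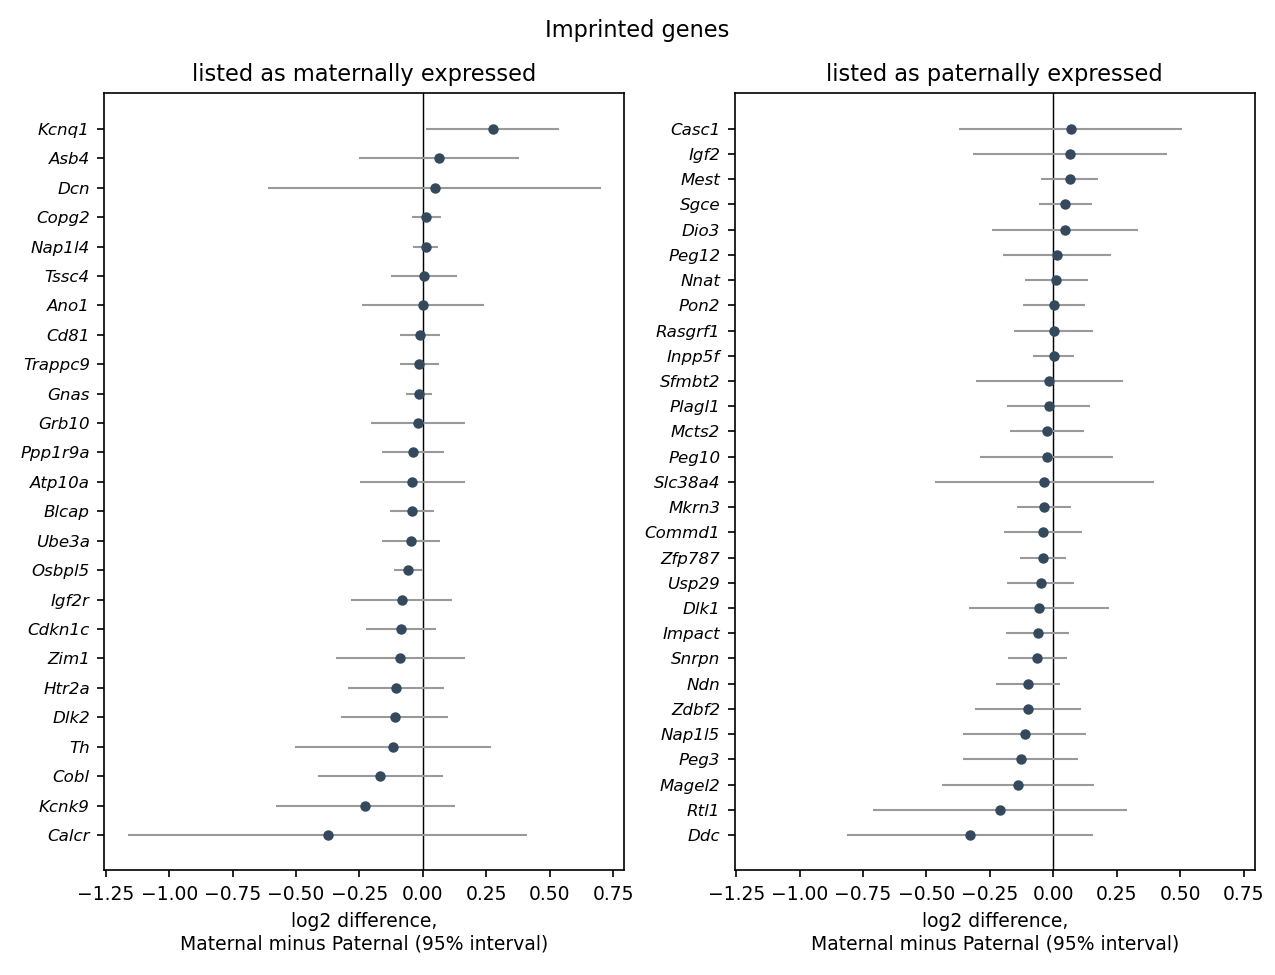
Log2 difference, Maternal minus Paternal, with its 95% interval for 25 tested genes listed as expressed from the maternal allele (left) and 29 from the paternal allele (right), with all 42 libraries. The estimates run from -0.38 for Calcr to 0.27 for Kcnq1, and 52 of 54 intervals cross 0, all but those of Kcnq1 and Osbpl5.

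The 13 mitochondrially encoded mRNAs had a median log2 difference of 0.021, with 0 at an unadjusted p under 0.05. mt-Cytb, cytochrome b, had 1467, 1994 and 2223 normalised CPM in Maternal libraries and 1433, 1959 and 2419 CPM in Paternal ones, at 0.053 ± 0.045. The lowest estimate was that of mt-Co3, a subunit of cytochrome c oxidase, at -0.23 ± 0.15, with 374.9, 1062 and 1600 CPM in Maternal libraries and 603.3, 1179 and 1587 CPM in Paternal ones. Mitochondrially encoded counts took 1.26, 1.63 and 1.79 percent of the total in Maternal libraries (lowest, median, highest) and 1.18, 1.55 and 1.95 percent in Paternal ones. The X chromosome, which sons receive from the mother alone, had 503 tested genes with a median of -0.012 against -0.005 for 13596 genes of the autosomes.

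With all 42 libraries, further lists linked to the compound or to the title of the series had medians near 0. Genes of xenobiotic handling had a median of -0.029 (0 of 32 at an unadjusted p under 0.05), antioxidant defence -0.010 (0 of 32), the glucocorticoid and stress axis -0.028 (0 of 24) and autism-linked regulators -0.012 (0 of 45). Ephx1, an epoxide hydrolase, had 2.61, 3.72 and 5.61 CPM in Maternal libraries and 1.91, 4.15 and 6.71 CPM in Paternal ones, at -0.20 ± 0.13. Regulators of chromatin were at 0.005 for DNA methylation, 0.024 for histone deacetylases and 0.004 for polycomb. Interferon response genes had -0.098 (2 of 20 lower at an unadjusted p under 0.05) and cholesterol synthesis genes -0.062 (1 of 25, with 23 of 25 below 0). Over all genes 1.52 percent were lower at such a p, and 7649 of 14128 were below 0. Without the 6 libraries antioxidant defence had a median of 0.055 (10 of 32 higher and 1 lower at such a p), autism-linked regulators -0.052 (7 of 45 lower, 39 of 45 below 0) and cholesterol synthesis -0.086 (14 of 25 lower). Over all genes 11.4 percent were higher and 11.1 percent lower without the 6, and the autism-linked share of 15.6 percent lay near that. Below 0 were 7060 of 14101 genes without the 6.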

How the data were processed

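RNA was extracted with RNeasy and sequenced in 42 libraries used here. The authors deposited estimated counts per gene, made before deposit, per the submitters' processing notes, with Salmon 1.10.1 after Trim Galore 0.5.0, genome build mm10; these expected counts are whole numbers. The summing to genes and the annotation release are not given in the sources used here. Symbols and positions came from GENCODE M21 by gene ID (14810 of 14823 genes). Totals were 17.7 to 41.4 M counts (M, 1 megacount).

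The test was edgeR 4.0.16 (R 4.3.3), after filterByExpr took out 695 genes, with TMM scaling and the quasi-likelihood model fitted robustly to parent, dose and batch. Doses were contrasted in a fit with 1 mean per group. Called means an adjusted p (Benjamini-Hochberg) below 0.05 in this 2-sided test. Normalised CPM are on TMM-scaled totals; ± is a standard error unless SD is written. The smallest chi-square per gene between 2 libraries was 3.19 times that of sampling, so none was counted as a repeat. Sex labels matched in 42 of 42 libraries.

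The members, lists and tests were chosen with earlier results of these data known. The spread measure and the exclusion of 6 libraries were added after seeing the data. Named were the 12 genes of lowest p in each direction with a mean of at least 1 CPM and 1 sign at both doses and in both batches, and the 2 of lowest p per list; predicted genes were not named, and some items are not reported here. Alternatives were DESeq2 1.42.0 and its size factors, limma 3.58.1 with quality weights, 2 surrogate variables (sva 3.50.0), no filter, other terms, all 76 libraries, thinned counts, single batches, a replicate block and leaving libraries out. Over 20 pairs of libraries with equal replicate numbers the deviations had correlations of -0.334 to 0.363, 6 of them over 0.1, so numbers do not pair libraries. Scripts were tested on simulated data; figures were drawn with matplotlib 3.10.9.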

Additional observations from a re-analysis of the deposited data

Results flagged for a closer look

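In 12 of 56 checked sets, each a named gene in Maternal_10Cyp (n = 8) or Paternal_10Cyp (n = 10), 1 library lay far from the nearest other one for the range of its group; chance marks about 1 in 20. In normalised CPM, Irx2 was at 1.209 in Maternal_10Cyp replicate 3 and 2.983 in Paternal_10Cyp replicate 1. Pou4f1 was at 2.05 in Maternal_10Cyp replicate 3 and 3.663 in Paternal_10Cyp replicate 1, and Irx1 at 1.892 in Maternal_10Cyp replicate 3. Tcf7l2 was at 26.68 in Maternal_10Cyp replicate 7 and 67.61 in Paternal_10Cyp replicate 1, and Rora at 6.457 in Maternal_10Cyp replicate 7. Tfap2b was at 1.364 in Maternal_10Cyp replicate 6 and 9.136 in Paternal_10Cyp replicate 7, the library in which Mab21l2 was at 4.012. Gramd1c was at 1.561 in Maternal_10Cyp replicate 5.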

How the results depend on the processing

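Pooled over doses, 0 genes were called under all alternatives apart from 2: without a filter on low counts 5 were called (among them Barhl1, Pou4f2, En1 and Pax7), all lower in Maternal libraries, and without the 6 libraries that stand apart 2. At dose 0.3 there were 4 calls without a filter, 5 by DESeq2 (Irx2, Ttll11, Tlr4, Hbb-y and Irx1), 1 with 2 surrogate variables (Ttll11) and 3 with all 76 libraries (Irx2, Barhl1 and Irx1). At dose 10 DESeq2 called 1, and in the test of parent by dose DESeq2 called 1 and surrogate variables 1. Causes were not tested. With the replicate block 0 genes were called (356 at an unadjusted p under 0.05). Leaving out each library in turn gave 0 calls throughout, but the pooled count at an unadjusted p under 0.05 ran from 199 without Paternal_0.3Cyp replicate 9 to 1050 without replicate 8, with 625 without replicate 4; it was 1888 by limma (1113 higher, 775 lower in Maternal libraries), 1271 when the 2 libraries of high embryonic globin were left out, and 591 with surrogate variables (371 higher, 220 lower). At dose 10, 936 genes had such a p without Paternal_0.3Cyp replicate 8, 815 without Paternal_10Cyp replicate 6, 324 without Maternal_10Cyp replicate 1 and 331 without its replicate 5; at dose 0.3, 709 without Paternal_0.3Cyp replicate 8. The difference of distances between parents ran from -0.0482 to -0.0227 with 1 library left out, and was -0.00571 (permutation p = 0.478) without the 6. None of the 24 genes named by lowest p changed sign. They were chosen for 1 sign at both doses and in both batches, so this follows in part from the choice. Genes near 1 CPM rest on about 19 counts a library.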
